A study of Mus musculus with 6 samples.

Results

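Transcripts of 9 genes of heme synthesis and breakdown (Alas1, Alas2, Alad, Uros, Urod, Cpox, Ppox, Fech and Hmox1) were measured in mouse liver with and without SIRT1, an NAD-dependent protein deacetylase. The genes were taken by the gene name in the scanner files, whatever their result. They are 9 of the 27962 gene names on the array and are covered by 11 of its 41174 probes other than control spots, with 2 probes each for Alas1 and Fech. All 11 were well above background on all 6 arrays and none was saturated, so every one entered the test, among 23592 tested probes. The mice were males of 10 weeks on chow and of mostly C57BL/6 background, with free access to food, killed at 4 pm. Lox control mice were set against liver-specific SIRT1 knockout (LKO) mice, where the sources used here name neither the Cre driver nor the exons removed. Livers of 2 mice were pooled per sample, 3 pools per genotype, and 500 ng of RNA per pool was labelled with Cy3 for a 1-colour Agilent whole mouse array.

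Heme is an iron-holding porphyrin that serves as the cofactor of cytochromes, catalase and hemoglobin. Its synthesis starts and ends in mitochondria: an ALA synthase (Alas1 in most tissues, Alas2 in erythroid cells) makes aminolevulinic acid, cytosolic enzymes including Alad, Uros and Urod build the porphyrin ring, and Cpox, Ppox and Fech finish it and insert iron. Hepatocytes make much of their heme for cytochrome P450 enzymes, and Alas1 is the step at which heme feeds back on its own synthesis. Heme oxygenase, Hmox1 in its inducible form, opens the ring to biliverdin, iron and carbon monoxide, and in liver it is abundant in Kupffer cells, which clear old red cells.

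Levels are given as log2 intensity after subtraction of the array's 75th percentile, and a difference is the LKO mean minus the control mean on that scale. The 75th percentile was an intensity of 1005 to 1056 on 5 arrays and 1289 on the array of LKO pool 3. No slide holds both genotypes: slide 1 carried the controls, slide 2 carried LKO pools 1 and 2, and slide 3 carried LKO pool 3. A difference between genotypes therefore cannot be told apart from a difference between slides. For LKO pool 3 the scanner file and the deposited value table disagree. The table came within 1% of the scanner value for 0.853% of probes in that pool and for 99.8% in each of the others. Results are therefore given with the scanner file, without this pool and with the table. Sirt1 itself was lower in 3 of 3 LKO pools at 1 probe (difference -0.24, limma adjusted p = 0.243) and differed by -0.02 at another (adjusted p = 0.941). That second value rests on LKO pool 3: it was -0.13 without the pool (adjusted p = 0.346) and -0.19 with the value table (adjusted p = 0.238), with no overlap between groups in both cases. Whether either probe falls in the removed exons is unknown, so Sirt1 does not check the labels here. Alb, the main hepatocyte product, lay at 8.78 to 9.15 in controls and 8.83 to 9.32 in LKO pools.

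The probes are 60-base oligonucleotides. The pair for Alas1 is shown because they gave the same picture, and those for Alad and Ppox because their alignment to mm7, the genome build of the files, is longer than the probe, 146 and 178 bases, so that each is split between stretches of the gene. Sequences are those of the scanner files, 5′ to 3′, in lower case with nothing marked. All 4 lie on the minus strand.
Alas1, chr9:105963584-105963643: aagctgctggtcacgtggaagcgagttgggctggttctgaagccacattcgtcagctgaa
Alas1, chr9:105964920-105964979: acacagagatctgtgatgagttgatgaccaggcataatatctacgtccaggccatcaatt
Alad, chr4:61944457-61944602: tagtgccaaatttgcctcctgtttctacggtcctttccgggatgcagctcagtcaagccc
Ppox, chr1:171247414-171247591: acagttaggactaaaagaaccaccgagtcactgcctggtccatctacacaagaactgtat
Read on the strand printed, each Alas1 probe has 1 frame without a stop codon, and those of Alad and Ppox have 2 each.

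No heme synthesis or breakdown gene passed the test between genotypes. The limma adjusted p-values over all tested probes ran from 0.267 (Alas2) to 0.946 (Alas1), 0 of the 11 probes had an unadjusted p under 0.05, and 4 differences were above 0 and 7 below. Over all probes, 15 of 23592 (0.0636%) passed and 21.2% had an unadjusted p under 0.05. The member differences lay between -0.44 and 0.17, with a median of -0.02 against 0.02 for all tested probes. For 10 of the 11 probes the 95% interval of the difference lay within 1.5-fold either way, as it did for 55.4% of all tested probes. The exception was Alas2. These intervals are not adjusted for the number of probes, and since nothing ties single mice to arrays they measure the spread between pools.

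**Figure D1:**
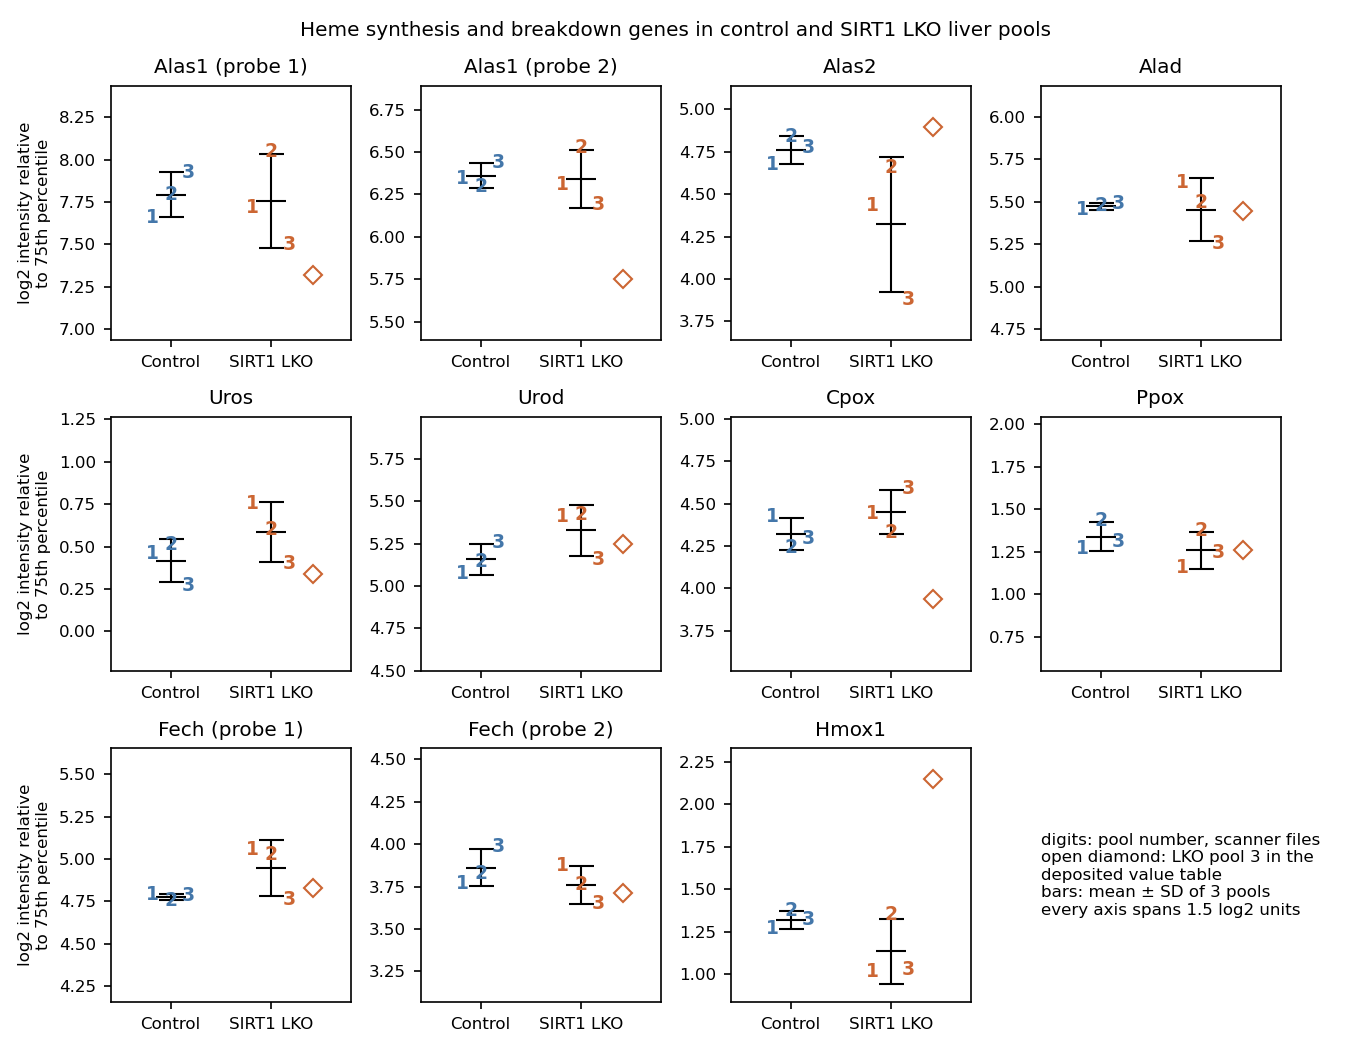
Log2 intensity minus that of the array's 75th percentile (y axis) for each of the 11 probes in control and SIRT1 LKO pools; digits are pool numbers, bars are mean ± SD of 3 pools, and the open diamond is LKO pool 3 in the deposited value table. Groups are apart only for Alas2, and the diamond lies far from the digit 3 for Alas2, Hmox1, Cpox and the second Alas1 probe.

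Alas1, the rate-limiting step in liver, was 7.66, 7.79 and 7.93 in control pools 1 to 3 and 7.72, 8.05 and 7.50 in LKO pools 1 to 3 at its brighter probe. The LKO pools spread on both sides of the controls, with pool 2 highest and pool 3 lowest. The difference was -0.04 (SE 0.16, 95% interval -0.42 to 0.35, limma adjusted p = 0.917). The second probe gave 6.34, 6.30 and 6.44 in controls and 6.31, 6.53 and 6.19 in LKO pools, a difference of -0.02 (SE 0.12, interval -0.30 to 0.26). Both probes rank the 3 LKO pools in the same order. Without LKO pool 3 the differences were 0.09 and 0.06, and with the value table, where that pool was 7.32 and 5.75, they were -0.10 and -0.16, none past the threshold (adjusted p from 0.631 to 0.751 at the second probe and 0.703 to 0.778 at the first).

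Alas2 is the erythroid ALA synthase, encoded on the X chromosome (probe at chrX:145329125-145329184, mm7, plus strand). It had the widest difference of the 9 genes on the 6 scanner arrays. Without LKO pool 3 and with the value table, Fech, Uros and Urod differed by more. With the table so did Hmox1 (0.19) and the second Alas1 probe (-0.16). Alas2 was 4.67, 4.84 and 4.77 in controls and 4.43, 4.66 and 3.88 in LKO pools. All 3 LKO pools lay below all 3 controls, pool 2 by a margin within the control spread and pool 3 far below the rest. The difference was -0.44 (1.36-fold, SE 0.20, interval -0.92 to 0.04) and did not pass (limma adjusted p = 0.267). Separation of this kind, in either direction, was seen in 1 of the 11 probes and in 28.9% of all tested probes. Without LKO pool 3 the difference was -0.22 (adjusted p = 0.247). With the value table pool 3 was 4.89, above every control, and the difference was -0.10 (adjusted p = 0.661), so the size of the Alas2 difference rests on which source holds pool 3.

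Erythroid markers were set beside Alas2, since blood left in the liver carries erythroid RNA and in bulk samples fewer cells and less RNA per cell cannot be told apart. Of the 22 markers listed 17 were on the array and 9 were tested, at 13 probes. The red cell membrane genes Epb42, Kel, Rhag and Rhd were not well above background on any array. Hba-a1, alpha globin, was 4.83, 4.98 and 4.92 in controls and 4.77, 4.71 and 5.53 in LKO pools at its brighter probe. At 1 of its probes Hbb-bt, a beta globin, was 5.80, 5.94 and 5.95 against 5.84, 5.63 and 6.15. LKO pool 3, the lowest pool for Alas2, was the highest for both globins at these probes, while for the anion exchanger Slc4a1 it was the lowest. At the other Hbb-bt probes LKO pool 3 lay 0.12, 0.28 and 0.45 above the control mean. At the first of these control pool 3 was higher (0.14). LKO pools 1 and 2 lay above or below the control mean depending on the Hbb-bt probe. Slc4a1 was -2.63, -3.37 and -3.27 in controls and -3.74, -3.37 and -3.87 in LKO pools (difference -0.57, limma adjusted p = 0.226). In the value table pool 3 lay above the control mean by 0.13 both for Alas2 and for this Hba-a1 probe, and at -0.13 from it for Slc4a1. In the scanner file LKO pool 3 lay above the control mean at 11 of the 13 marker probes and below at 2 (median 0.25), with Alas2 at -0.88. With the value table this pool lay above at 10 of the 13 and below at 3 (median 0.24), on the same side as Alas2. LKO pools 1 and 2 each lay above at 7 and below at 6, with Alas2 below. The part of blood in the Alas2 values was not tested. Globin copies are near-identical, so the Hba-a1 and Hbb-bt probes may report several of them. The progenitor factor Tal1 differed by 0.30 (adjusted p = 0.179), and 0 of the 13 probes passed (limma; 2 at an unadjusted p under 0.05). The median difference of the 13 was 0.09, and their summed level ranged from 7.29 to 7.44 in controls and from 7.20 to 7.77 in LKO pools.

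The upstream stretch of Alas2 is shown because its known erythroid activator, GATA1, binds the letters AGATAA or their complement on the other strand. It holds the 250 bases before the start of the gene, from RefSeq on GRCm38.p6, plus strand, chrX:150547167-150547416, with the match in capitals.
Alas2: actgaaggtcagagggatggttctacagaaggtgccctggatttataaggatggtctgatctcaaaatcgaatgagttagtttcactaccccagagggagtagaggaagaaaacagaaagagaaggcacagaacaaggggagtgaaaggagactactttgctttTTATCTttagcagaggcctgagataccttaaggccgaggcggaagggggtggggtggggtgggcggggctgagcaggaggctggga
The match starts 86 bases before the gene, on the opposite strand. AGATAA, on either strand, is in 9.99% of 32851 such stretches and in 1 of the 7 members that the table holds. The E-box CACGTG is in 6.02% of stretches and in 3 of the 7 members, Alad, Urod and Uros. The ARE core TGACNNNGC, the site of NRF2, was searched on either strand and is in 10.2% of stretches and in 0 of the 7 members, which do not include Hmox1 and Fech. These matches are letters only and were not measured as bound here. The percentages count each stretch, whereas a member counts when any of its stretches has a match. Alad, Uros and Alas1 have more than a single stretch, so the shares are not in like units. Gata1 was well above background on 1 of 3 control and 3 of 3 LKO arrays and differed by 0.05 (adjusted p = 0.861).

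No cytosolic step passed the test. Alad, which joins a pair of aminolevulinic acid molecules, was 5.45, 5.48 and 5.49 in controls and 5.61, 5.50 and 5.25 in LKO pools. Its controls had an SD of 0.02, while LKO pools 1 and 2 were above and pool 3 below them, and the difference was -0.02 (interval -0.30 to 0.26, limma adjusted p = 0.94).

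Uros, which closes the ring, was 0.46, 0.51 and 0.27 in controls and 0.75, 0.60 and 0.40 in LKO pools, with pools 1 and 2 above every control and pool 3 among them. The difference was 0.17 (SE 0.13, interval -0.14 to 0.48, limma adjusted p = 0.476). It was 0.26 without LKO pool 3, 0.085 without LKO pool 1, 0.098 without control pool 3, 0.15 with the value table and 0.025 with normexp background correction. Urod, which trims its side chains, also had LKO pools 1 and 2 above every control and pool 3 among them, with 5.07, 5.14 and 5.26 in controls and 5.41, 5.42 and 5.16 in LKO pools. Its difference was also 0.17 (SE 0.11, interval -0.10 to 0.44, adjusted p = 0.425), and it was 0.26 without LKO pool 3 (interval 0.02 to 0.49, adjusted p = 0.143) and 0.20 with the value table (adjusted p = 0.237).

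Cpox, the first of the late mitochondrial enzymes, was 4.43, 4.24 and 4.29 in controls and 4.44, 4.33 and 4.59 in LKO pools. The groups overlapped, and the difference was 0.13 (SE 0.11, limma adjusted p = 0.522). Here LKO pool 3 was the highest pool in the scanner file and the lowest, 3.93, in the value table, where the difference became -0.09 (adjusted p = 0.742). Ppox, the next enzyme, was 1.27, 1.43 and 1.31 in controls and 1.15, 1.37 and 1.24 in LKO pools, a difference of -0.08 (SE 0.10, adjusted p = 0.685) that was -0.08 with the value table. Leaving out 1 pool at a time gave -0.14 (without LKO pool 2) to -0.03 (without LKO pool 1 or control pool 2).

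Fech, ferrochelatase, which inserts the iron, had probes that pointed in opposite directions. The brighter one (chr18:64844967-64845026, mm7, minus strand) was 4.79, 4.75 and 4.78 in controls and 5.06, 5.03 and 4.76 in LKO pools. LKO pools 1 and 2 stood clear of the tight controls, and pool 3 lay inside their range. The difference was 0.17 (SE 0.11, interval -0.09 to 0.44, limma adjusted p = 0.408), and without LKO pool 3 it was 0.27 (interval 0.07 to 0.47, unadjusted p = 0.0185, adjusted p = 0.101). The dimmer probe (chr18:64846091-64846150, minus strand) was 3.77, 3.83 and 3.99 in controls and 3.87, 3.76 and 3.65 in LKO pools, a difference of -0.10 (SE 0.11, adjusted p = 0.621). With the value table the differences were 0.19 and -0.08 in the same order.

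Within an array, the brighter Fech probe minus the dimmer one was 1.02, 0.92 and 0.80 in control pools 1 to 3 and 1.18, 1.27 and 1.11 in LKO pools 1 to 3. All LKO pools lay above all controls, by 0.27 on average, and LKO pool 3 was also above them with the value table (1.12). This comparison was chosen after the values were seen, and the exact permutation test of 3 against 3, two-sided, gave p = 0.1, the smallest it can give. The same measure did not overlap between groups for 31.9% of the 5229 genes with at least 2 tested probes. For the Alas1 probes the groups overlapped, at 1.32, 1.49 and 1.48 in controls and 1.41, 1.52 and 1.31 in LKO pools (exact permutation p = 0.9).

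Hmox1, heme oxygenase 1, was 1.27, 1.37 and 1.32 in controls and 1.02, 1.35 and 1.03 in LKO pools (probe at chr8:73642229-73642288, mm7, plus strand). LKO pools 1 and 3 lay below the controls and pool 2 among them. The difference was -0.19 (1.14-fold, SE 0.12, interval -0.48 to 0.10, limma adjusted p = 0.41). Leaving out LKO pool 3 gave -0.13 (adjusted p = 0.512). With the value table pool 3 was 2.15, above all other pools, and the difference turned to 0.19 (interval -0.48 to 0.85, adjusted p = 0.7).

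Kupffer cell and macrophage markers moved with that switch of source. In the scanner file, LKO pool 3 lay below the control mean at 19 of 22 tested marker probes, by a median of 0.34, and Hmox1 lay 0.29 below. In the value table it lay above at 21 of 22, by a median of 0.73, and Hmox1 lay 0.83 above. Over the 6 scanner arrays 20 of the 22 probes were lower in LKO pools (median -0.19) and 0 passed (limma, 4 at an unadjusted p under 0.05), whereas 16 were higher with the table (median 0.20). Their summed level was 6.79 to 7.46 in controls and 6.84 to 7.10 in LKO pools, or up to 7.71 with the table. In controls the marker median ran from 0.36 above the mean in pool 1 to 0.37 below it in pool 3, while Hmox1 stayed within 0.05. Adgre1, a macrophage surface receptor, was 2.54, 1.92 and 1.56 in controls and 1.83, 1.99 and 1.55 in LKO pools, and 2.75 in the table's pool 3. Cd163, the scavenger receptor for hemoglobin, was 1.55, 1.48 and 1.44 against 1.63, 1.86 and 1.96 (difference 0.33, adjusted p = 0.184). The part of these cells in the Hmox1 values was not tested.

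**Figure D2:**
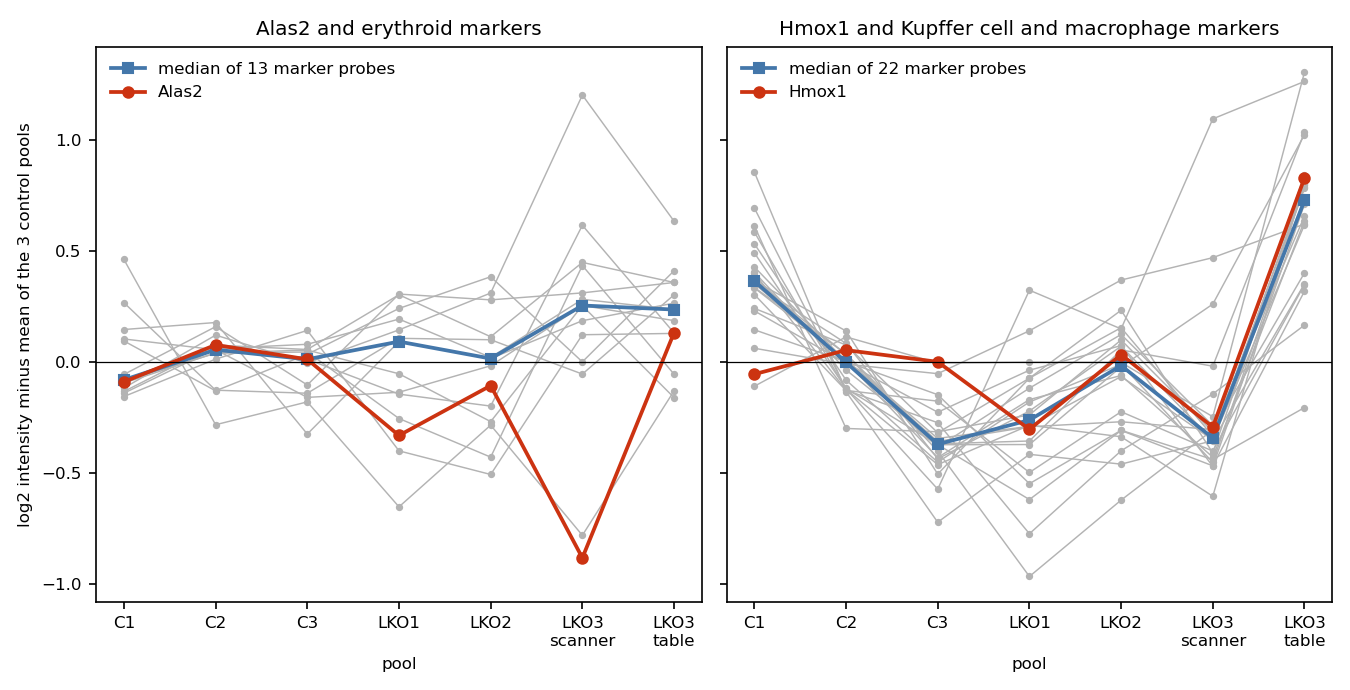
Log2 intensity minus the mean of the 3 control pools (y axis) in each control (C) and LKO pool (x axis), with LKO pool 3 from the scanner file and from the value table; red is Alas2 or Hmox1, blue the median of 13 erythroid or 22 Kupffer cell marker probes, and each grey line joins the values of 1 marker probe. In LKO pool 3 of the scanner file Alas2 is at -0.88 while the erythroid median is at 0.25, and in the table Hmox1 is at 0.83 and the Kupffer median at 0.73.

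Taking LKO pools 1 and 2 against the controls, 7 of the 11 probes were higher and 4 lower, with a median of 0.06, and 5 did not overlap with the controls: Alad, Uros, Urod and the brighter Fech probe were above them and Alas2 below. Non-overlap of 2 against 3 pools was seen in 51.7% of all tested probes, against 45.5% of the member probes. None passed, where 2.96% of all probes did (limma). Urod and the brighter Fech probe, 2 of 11, had an unadjusted p under 0.05, as did 30.6% of all probes. With the value table none passed, against 1.31% of all probes (limma; 0 at an unadjusted p under 0.05 against 26.3%). Only the brighter Fech probe did not overlap there, 1 of 11 against 34.1% of all probes, and 9 of the 11 intervals lay within 1.5-fold. The outer intervals there were those of Hmox1 and the second Alas1 probe.

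**Figure D3:**
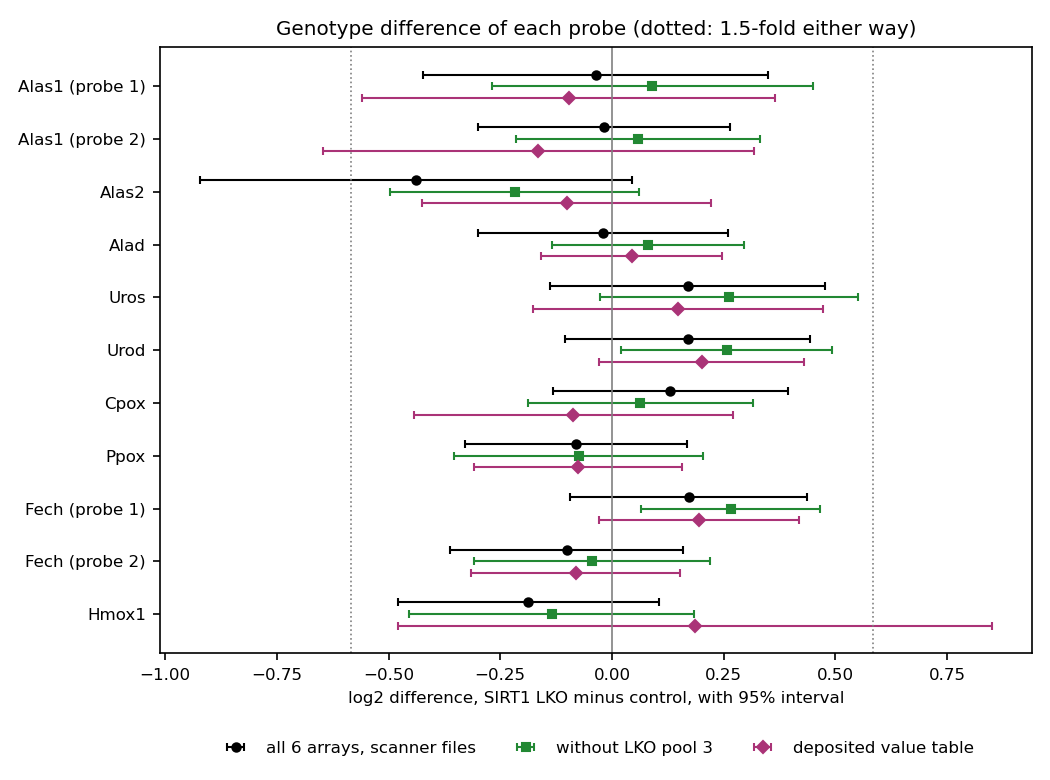
Log2 difference, SIRT1 LKO minus control (x axis), with its 95% interval from limma for each of the 11 probes (y axis), for all 6 scanner arrays (black), without LKO pool 3 (green) and with the deposited value table (purple); dotted lines mark 1.5-fold either way. In black only the Alas2 interval, -0.92 to 0.04, crosses a dotted line, and in green it narrows to -0.50 to 0.06.

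The genes around the pathway were read in 12 lists of carriers, regulators, users and cell type markers, 141 genes at 210 tested probes. None passed with all 6 scanner arrays (limma; 42 probes, 20.0%, at an unadjusted p under 0.05 against 21.2% of all probes). Without LKO pool 3 there were 6 calls among the 210, near the share of all probes (2.96%): Txnrd1 was higher and Abcc3, Gclc, Hnf4a, Keap1 and Ncor1 lower. With the value table there were 4 of 210, against 1.31% of all probes: Abcc3, Cyp4a10, Gclc and Ncor1, all lower.

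Among 19 tested genes that carry heme and its precursors or assist its making, 13 of 27 probes were higher and 14 lower (median -0.02). Abcg2, an exporter of porphyrins, was 4.08, 3.97 and 4.21 in controls and 3.80, 3.62 and 3.23 in LKO pools, with no overlap (difference -0.54, limma adjusted p = 0.15), and its brighter probe differed by -0.49 (adjusted p = 0.137). Slc48a1, a heme transporter of lysosomes, differed by -0.31 (adjusted p = 0.148) and by -0.17 at a second probe. Cox15, which makes heme A for cytochrome oxidase, differed by 0.31 (adjusted p = 0.194).

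Past Hmox1, in the list for heme breakdown and clearance, 8 of 12 probes were higher and 4 lower (median 0.09). Blvra, biliverdin reductase A, was 1.62, 1.63 and 1.71 in controls and 2.16, 2.03 and 1.77 in LKO pools, all above the controls (difference 0.34, limma adjusted p = 0.195; 0.45 without LKO pool 3, adjusted p = 0.0571). Hmox2, the constitutive heme oxygenase, differed by 0.11 (adjusted p = 0.522) and Blvrb, biliverdin reductase B, by 0.05 (adjusted p = 0.913). Slco1b2, an uptake carrier of hepatocytes, differed by -0.23 (adjusted p = 0.235).

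Of 30 probes for regulators of Alas1, 22 were lower and 8 higher (median -0.20). The list holds both activators and repressors, so this count has no set direction for Alas1. Alas1 itself differed by -0.04 and -0.02. Nr1d1, REV-ERBα, a heme-binding repressor of the clock, was 0.20, 0.36 and -0.65 in controls and -1.67, -1.28 and -0.91 in LKO pools at its brightest probe (difference -1.26, limma adjusted p = 0.114), and its other 2 probes differed by -1.02 and -0.68. Ppargc1a, the coactivator PGC-1α, known to induce Alas1 in fasting, was 0.65, 0.55 and -0.01 against -0.69, -0.60 and 0.24 (difference -0.75, adjusted p = 0.218), and a second probe differed by -0.21. Ncor1, a corepressor, differed by -0.56 at the probe with its smallest p (adjusted p = 0.148; -0.73 without LKO pool 3, adjusted p = 0.0481), and by -0.44 at its brightest. Its 7 probes ranged from -0.56 to 0.42. The value of 0.42 came from a dim probe on the other strand, well above background on 1 of 3 control and 3 of 3 LKO arrays. Ncor1 probes that differed by -0.27 and 0.28 also lie on that other strand. Hnf4a, a hepatocyte nuclear receptor, differed by -0.44 (adjusted p = 0.133) at 1 probe and by -0.08 at the brightest.

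Regulators of Hmox1 split evenly, 6 of 12 probes higher and 6 lower. Keap1, which holds the activator NRF2 in check, was 3.61 ± 0.10 in controls (mean ± SD, n = 3) and 2.95, 3.04 and 3.23 in LKO pools, with no overlap (difference -0.54, limma adjusted p = 0.0953; -0.61 without LKO pool 3, adjusted p = 0.0492). Nfe2l2, which encodes NRF2, differed by 0.03 at its brightest probe and by 0.91 at its dimmest (adjusted p = 0.188). Bach1, the heme-sensing repressor of Hmox1, differed by -0.83 (adjusted p = 0.223). Genes that share these regulators went both ways, 8 probes higher and 7 lower. Gclc, of glutathione synthesis, differed by -0.85 (adjusted p = 0.0765) and by -0.94 without LKO pool 3 (adjusted p = 0.0477), and Txnrd1, thioredoxin reductase, by 0.42 (adjusted p = 0.169; 0.56 without LKO pool 3, adjusted p = 0.0482). Abcc3, a conjugate exporter, differed by -0.66 and, at a brighter probe, by -0.19.

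The heme-dependent enzymes, which draw on what the pathway makes, had 19 of 30 probes lower and 11 higher (median -0.05). Cyp2b10, a drug-metabolising P450, was -1.14, -0.05 and 0.37 in controls and -1.57, -2.51 and -2.56 in LKO pools (difference -1.94, limma adjusted p = 0.104), with the controls themselves far apart and pool 3 at -0.37 in the value table (difference -1.21, adjusted p = 0.26). Cyp4a10, a fatty acid hydroxylase, differed by -0.76 (adjusted p = 0.128), and Cyp2a5, a P450 known to oxidise coumarin, by 0.34 at 1 probe and -0.01 at another. In the iron supply list 11 of 19 probes were higher and 8 lower (median 0.07). Glrx5, of iron-sulfur cluster assembly, differed by 0.44 (adjusted p = 0.128), Slc40a1, the iron exporter ferroportin, by -0.43 (adjusted p = 0.129), and Ireb2, an iron-sensing regulator, by -0.23 at its brightest probe and by 0.46 and 0.38 at 2 dim ones.

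**Figure D4:**
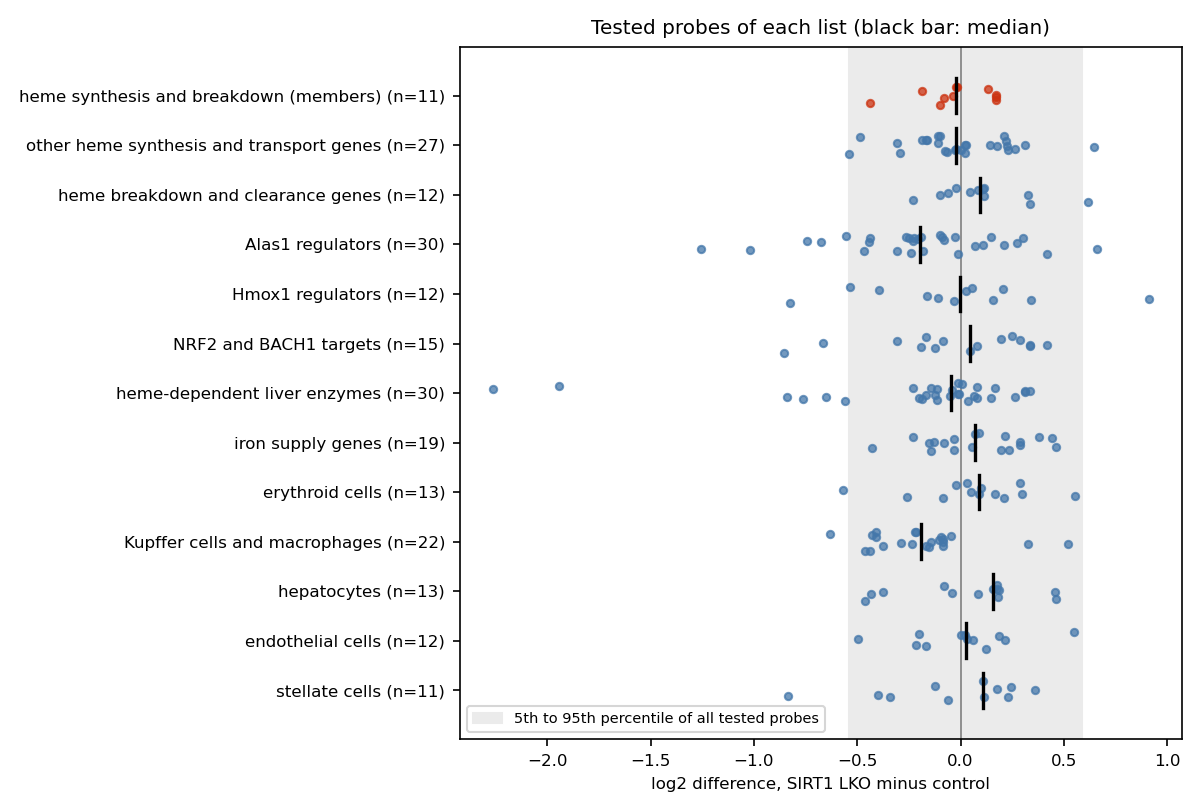
Log2 difference, SIRT1 LKO minus control (x axis), of each tested probe of the 9 heme genes (red) and of the 12 surrounding lists (blue), with black bars at the medians and a grey band from the 5th to the 95th percentile of all tested probes (-0.54 to 0.59). All 11 heme probes lie inside the band. Probes of other lists reach beyond it, among them those of heme transport, heme breakdown, Alas1 and Hmox1 regulators, NRF2 targets and heme-dependent enzymes. Each of these lists holds more than 11 probes.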

How the data were processed

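Spot intensity in the scanner files, made with Agilent Feature Extraction 9.5 (submitters' processing notes), is background-subtracted and detrended within each array, per the file headers. The value table that the authors deposited gives 1 intensity per probe from the Rosetta Resolver error model, per the series' design text. Its scaling between arrays is not stated; its columns equal the scanner values in 5 samples, and how LKO pool 3 differs is not explained (median ratio 0.719). Column medians were 74.5, 62.5 and 62.9 for control and 62.0, 62.5 and 62.6 for LKO pools 1 to 3. Flags per spot (0 or 1) are as deposited. Control and outlier spots were left out, spots of a probe were averaged after log2, and the array's 75th percentile was subtracted. Probes well above background on all 3 arrays of a group were tested with limma 3.58.1 in R 4.3.3 (genotype only, two-sided, Benjamini-Hochberg, threshold 0.05). Of 41174 probes 22951 matched RefSeq (GRCm38.p6) by accession. On simulated data (23546 probes, 200 changed) the fit recovered 15.2%, 52.4% and 83.9% of 1.5-, 2- and 4-fold changes. Genes and lists were chosen with earlier results of these data known. Named genes are the members, Sirt1, the 3 smallest p-values of the pathway lists, list genes called without LKO pool 3 or with the table, and genes named without regard to result; Gata1 and the other erythroid genes below background were named after their values were seen. Endothelial and stellate markers had 0 calls, with medians of 0.03 and 0.11, and hepatocyte markers 0 calls and a median of 0.15. Same-numbered pools did not deviate together (correlations 0.009, -0.043 and -0.093). With 3 pools per genotype this does not settle whether the numbers pair them, and the labels do not say. Figures: matplotlib 3.10.9. Some genes of the pathway and of the marker lists are not reported here by name.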

Additional observations from a re-analysis of the deposited data

How the results depend on the processing

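Heme gene probes past the threshold were 0 under all 18 alternatives. Of their differences under them, 186 kept direction and 8 did not. Part of the 186 could not change. The filters on dim probes, the kept outlier spots and the brightest probe per gene left the member differences as they were. So did the replicate block and the intensity trend, which alter only their error. With the value table Alad was 0.044, Cpox -0.086 and Hmox1 0.19. Leaving out 1 pool at a time gave -0.18 to 0.090 and -0.11 to 0.058 for the Alas1 probes, above 0 without control pool 3 (0.03 and 0.02) or LKO pool 3, and -0.10 to 0.081 for Alad, above 0 without LKO pool 3. The cause was not tested. With normexp the brighter Fech probe was 0.059, and with the mean of the probes of a gene Fech was 0.035. Alas2 ranged from -0.61 to -0.10. Probes called among all tested were 15, and 0 with normexp, without the filter on dim probes, with the slide as a random block and with the replicate block, 49 with probes above background on all 6 arrays, 24 with the brightest probe or the mean per gene, 91 with an intensity trend, and 308 with the value table. They were 698 without LKO pool 3 and 0 without any other single pool. With the replicate block Alas2 had a limma adjusted p of 0.298, and with the slide block 0.51. The slide block cannot separate slide from genotype, since no slide holds both genotypes. Member probes that did not overlap between groups were 3 with quantile normalization, 0 with normexp and with centring on the median, and 1 to 5 with 1 pool left out. Calls in the surrounding lists were 1 (Gclc) with an intensity trend, 4 with the value table and 0 to 6 with 1 pool left out. The number of arrays limits precision.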
